A study of Mus musculus with 5 samples.

Results

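XLOC_015689 is an intergenic lncRNA locus on the plus strand of mouse chromosome 10 (66698191 to 66710058 in the deposited coordinates) that the submitters assembled from testis RNA. It was selected on its readout: the isoform TCONS_00026974 had counts in both saline libraries and none in any triptolide library. All 5 transcripts of the locus are described here. The other 24 transcripts, at 15 loci, were taken by position alone, as all others that start in a fixed window of chromosome 10 around it, from XLOC_020550 (66589324) to XLOC_015732 (66980809). These 29 transcripts are part of 33057 at 16356 loci in the lncRNA table. Because that difference chose the locus, its isoforms, its shares and its total are given as descriptions without a test, and tests are given only for the neighbours.

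The animals were male C57BL/6J mice of 10 weeks. The triptolide group received 50 µg of triptolide per kg body weight per day by gavage, and the control group received saline. Testes were taken after 35 days from groups of 6 mice. Total RNA without ribosomal RNA was sequenced as strand-specific read pairs in 2 control libraries (1 and 2) and 3 triptolide libraries. Headers of the count columns name 1 triptolide library by its number, 3, while the other two share a header and are called A and B. Whether a library is 1 mouse or a pool is not stated, so any p-value measures the spread between these libraries only.

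Long non-coding RNAs are transcripts without a protein product, and the adult testis makes more kinds of them than most tissues. Much of the abundant intergenic RNA of adult mouse testis is made in meiotic and later germ cells. Some of it consists of long, little-spliced precursors that are cut into pachytene piRNAs, small RNAs that silence transposons and guide RNA cleavage in spermatocytes and round spermatids. Such precursors are often transcribed in both directions from a shared promoter under the transcription factor A-MYB. The files used here do not say whether XLOC_015689 belongs to that class. Triptolide binds XPB, a helicase of the general transcription factor TFIIH, and inhibits transcription by RNA polymerase II.

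XLOC_015689 was among the most abundant lncRNA loci of the control testis. CPM, the count scaled to the lncRNA total of the same library, put it at rank 20 of 16356 loci in control and at rank 45 in triptolide. It held 0.405% and 0.461% of the lncRNA counts of the controls and 0.221% to 0.258% of those of the triptolide libraries. Total lncRNA counts were 947298 to 1071012 per library, and the groups overlapped in this depth. No RefSeq gene overlaps XLOC_015689 or the locus opposite it. The nearest protein-coding genes in the RefSeq order of genes are Ctnna3, which encodes an alpha-catenin of cell junctions, at lower coordinates, and Reep3, an endoplasmic reticulum shaping protein, at higher coordinates.

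The isoforms share their 3′ end at 66710058 and differ in their start and in how much is spliced out. TCONS_00026970 and TCONS_00026971 both start at 66698191 and have 2 exons. TCONS_00026974 starts 61 bases further on, at 66698252, and also has 2 exons. TCONS_00026973 starts at 66698210 with 3 exons, and TCONS_00026975 starts at 66699211 with 2 exons. Exon positions were not used here, but the deposited counts and FPKM (the count scaled to depth and to length) imply an effective length for each isoform, which is its spliced length less about 1 fragment. In control 1 that length was 9822 bases for TCONS_00026971, 10162 for TCONS_00026974, 7912 for TCONS_00026970 and 6129 for TCONS_00026973. TCONS_00026975 had 7183 bases in triptolide 3, the library in which it was counted.

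TCONS_00026974 was therefore the longest of the isoforms, about 340 bases longer than TCONS_00026971 although it starts later. Taken with the start sites, its intron is about 401 bases shorter than that of TCONS_00026971. TCONS_00026970 has an intron about 1910 bases longer than TCONS_00026971. These isoforms thus share most of their sequence. An expected count divides the reads that fit several isoforms between them by estimation, so a value of 0 says that no reads were assigned to that isoform.

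TCONS_00026974 had expected counts of 941 and 1210 in control 1 and 2 and 0, 0 and 0 in triptolide A, B and 3. All 3 triptolide libraries were at 0 and both controls were near or above 1000. In CPM it averaged 1052 ± 109 (SD, n = 2) in control, where it ranked 112 among 33057 transcripts. Against a floor of 3 counts per triptolide library, a mean of 2.97 CPM, the assigned counts were at least 354-fold lower in triptolide. That floor covers counting error only and not the division of shared reads, so it sets no limit on the isoform itself. In deposited FPKM the isoform had 96.0 and 111 in control 1 and 2 and was listed at 0 in triptolide 3.

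TCONS_00026971, the most abundant isoform of the locus in every library, had expected counts of 2286 and 2875 in control and 1508, 1491 and 1532 in triptolide. The triptolide libraries lay close together and below both controls. Its level was 2527 ± 223 CPM (SD, n = 2) in control and 1496 ± 91.9 CPM (SD, n = 3) in triptolide, 1.69-fold lower. TCONS_00026970, the isoform with the longer intron, had 657 and 845 counts in control and 933, 851 and 940 in triptolide. Its level was 735 ± 76.1 CPM in control and 901 ± 91.1 CPM in triptolide, 1.23-fold higher, and the lowest triptolide library (804 CPM) stood just above the higher control (789 CPM).

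The minor isoforms were low or came from 1 library. TCONS_00026973, the one with 3 exons, had 24.1 and 3.69 counts in control and 0, 0 and 8.88 in triptolide, so the groups overlapped. TCONS_00026975 was at 0 in both controls and in triptolide A and B and at 150 counts in triptolide 3. It is the isoform that starts furthest downstream, and its presence rests on that library alone. Of the 5 isoforms, 3 passed the filter on low counts, namely TCONS_00026970, TCONS_00026971 and TCONS_00026974.

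**Figure D1:**
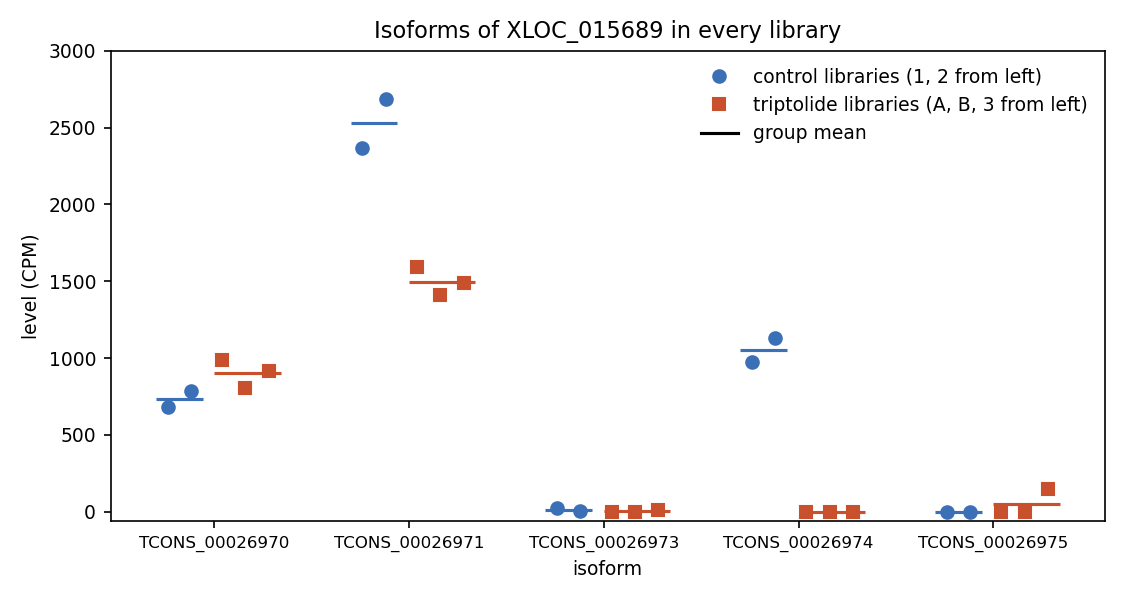
Level of each XLOC_015689 isoform (CPM, vertical axis) in every library, with circles for control, squares for triptolide and lines for group means. TCONS_00026974 stands near 1000 CPM in both controls and at 0 in all 3 triptolide libraries, TCONS_00026971 is lower in triptolide, and TCONS_00026970 is not.

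As a share of the locus, TCONS_00026974 made up 24.1% (95% Wilson interval 22.8% to 25.4%) of the count in control 1 and 24.5% (23.3% to 25.7%) in control 2. In triptolide A, B and 3, at 0 counts, the floor of 3 counts of the locus total corresponds to 0.123%, 0.128% and 0.114%, and the Wilson upper limits are 0.157%, 0.164% and 0.146%. These intervals and limits cover counting error only and not the division of shared reads. TCONS_00026970 took 16.8% and 17.1% in control and 38.2%, 36.3% and 35.7% in triptolide. Its share was thus 17.0 ± 0.22% (SD, n = 2) and 36.8 ± 1.3% (SD, n = 3), without overlap. With so few libraries, many other loci also had an isoform share without overlap between the groups.

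The share of TCONS_00026971 moved little beside these, although its CPM was 1.69-fold lower in triptolide. Shares of a locus add up to a fixed total, so the absence of TCONS_00026974 by itself raises the shares of the others. Controls had 58.5% and 58.3%, and triptolide A, B and 3 had 61.8%, 63.7% and 58.2%, so triptolide 3 overlapped the controls. For shares per base of effective length, triptolide A and B were given the isoform lengths implied in the other libraries, as their own were not used here. Per base, it averaged 56.4 ± 0.046% in control and 55.9 ± 3.1% in triptolide, so that the sign of its small difference changed with the measure. In the same measure TCONS_00026974 held 22.5% and 22.9% of the controls, and TCONS_00026970 averaged 20.3 ± 0.30% and 41.6 ± 1.7%.

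**Figure D2:**
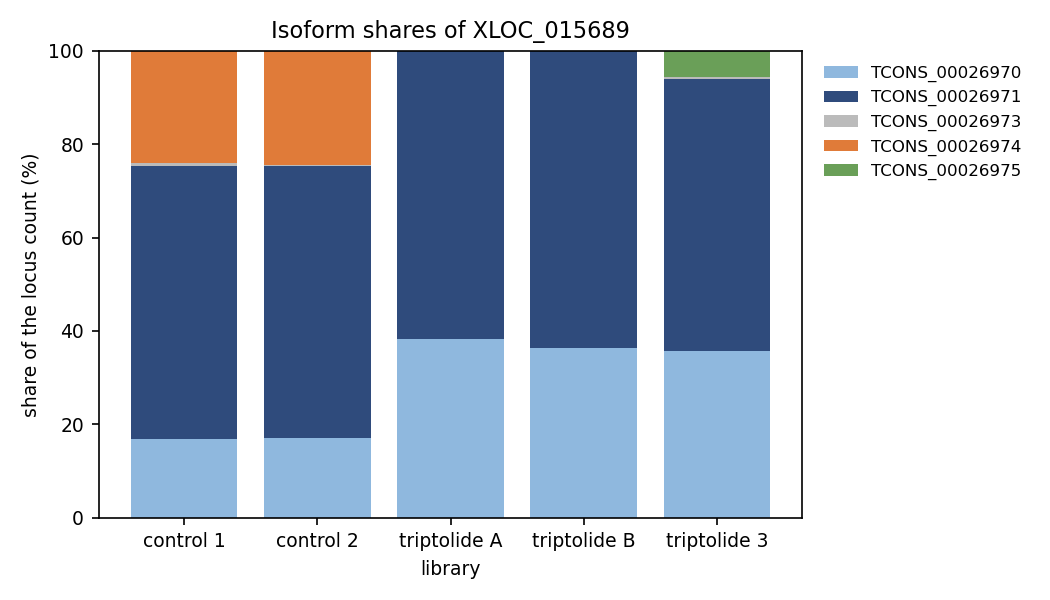
Share of each isoform in the XLOC_015689 count (percent, vertical axis) for every library, as stacked bars that add up to 100. The controls carry TCONS_00026974 at 24.1% and 24.5%, and the triptolide bars consist almost wholly of TCONS_00026971 and TCONS_00026970, with 5.70% of TCONS_00026975 in triptolide 3.

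Summed over its isoforms, XLOC_015689 had 3908 and 4933 counts in control and 2441, 2342 and 2630 in triptolide. Every triptolide library was below both controls. The total was 4328 ± 393 CPM (SD, n = 2) in control and 2448 ± 204 CPM (SD, n = 3) in triptolide, 1.77-fold lower. Its log2 fold change was -0.82 (edgeR), given without a test. Of the 1880 CPM between the group means, TCONS_00026974 accounted for 1052 and TCONS_00026971 for 1031, while TCONS_00026970 was 166 CPM higher in triptolide. Without TCONS_00026974 the other isoforms summed to 3276 ± 284 CPM in control and 2448 ± 204 CPM in triptolide, 1.34-fold lower and still without overlap. TCONS_00026971 and TCONS_00026974 together, the isoforms with the shorter introns, summed to 3579 ± 332 and 1496 ± 91.9 CPM, 2.39-fold lower.

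The neighbour that stands out is XLOC_020567, on the minus strand at 66682089 to 66698141. Its 5′ end lies 50 bases from that of XLOC_015689, so the pair starts back to back and is transcribed in opposite directions. XLOC_020567 is of the intergenic class too, was not listed as known by the authors, and ranked 12 among all loci in control and 24 in triptolide. It had 5085 and 6624 counts in control and 3260, 3437 and 4260 in triptolide. All triptolide libraries were below both controls. Its level fell 1.59-fold: control averaged 5727 ± 647 CPM (SD, n = 2) and triptolide 3609 ± 468 CPM (SD, n = 3). The quasi-likelihood test of edgeR gave a log2 fold change of -0.66 ± 0.16 (SE) and an adjusted p of 0.010 over the 6888 loci tested. XLOC_015689, which starts 50 bases away, was chosen for its values, so this p may not be independent of that choice. The call did not hold without control 2 (log2 fold change -0.51, adjusted p = 0.097 in edgeR) or without triptolide A (-0.64, adjusted p = 0.078). Limma on per-length levels gave an adjusted p of 0.36. Tissue RNA does not separate fewer cells of a type from less RNA per cell.

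No isoform of XLOC_020567 with more than 5 counts was at 0 in any library, and its shares differed by at most 6.93 percentage points between groups. TCONS_00035142 has its 5′ end at 66696147 and had 2393 and 3495 counts in control and 1423, 1533 and 1738 in triptolide. TCONS_00035145 has its 5′ end at 66698141, the edge facing XLOC_015689, and had 2692 and 3125 counts in control and 1837, 1904 and 2521 in triptolide. The former held 47.1% and 52.8% of the locus in control and 43.6%, 44.6% and 40.8% in triptolide, and the latter nearly all the rest. Tested singly, neither passed, with log2 fold changes of -0.89 ± 0.18 and -0.46 ± 0.18 (SE) and adjusted p of 0.27 and 0.50 (edgeR, transcripts). TCONS_00035144 had 4.60 counts in control 2 and 0 in the other libraries. Over the whole table, 0% of the 13534 transcripts tested were called in edgeR. An unadjusted p under 0.05 was reached by 1339 of them, and the calls numbered 327 in DESeq2 and 3 in limma on log2(CPM + 1).

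The balance between the strands of the pair changed less than the totals. XLOC_015689 made up 43.5% and 42.7% of the pair's counts in control and 42.8%, 40.5% and 38.2% in triptolide. Triptolide A lay between the controls. Together the strands reached 10056 ± 1040 CPM in the controls and 6057 ± 617 CPM with triptolide. Among all lncRNAs, 357 pairs of loci start back to back within 1000 bases, and this pair ranked first by the control level of its weaker locus. Among the 22 such pairs with at least 50 CPM in control on both strands, both loci had lower values in 8, both had higher values in 6, and they differed in direction in the other 8. These counts are a description, since XLOC_015689 was chosen for its values.

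**Figure D3:**
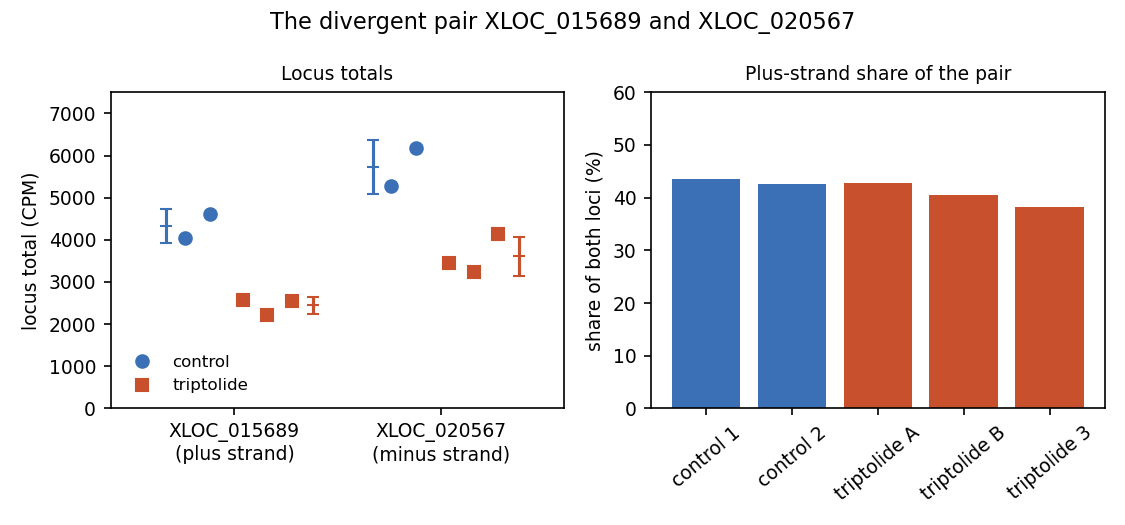
Left, totals of XLOC_015689 and XLOC_020567 (CPM) per library, with group means ± SD at the sides. Right, the percentage of the pair's counts that fell on XLOC_015689. Both totals are lower in every triptolide library, and the share runs from 38.2% to 43.5% over the 5 libraries.

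The rest of the window was nearly silent beside this pair, which held 96.3% to 98.3% of the window's counts in each library. Of the 15 neighbouring loci, 6 passed the filter on low counts and were tested, 1 fell (XLOC_020567) and 0 rose. Of all loci tested, 2.26% were called lower and 7.27% were called in either direction. These shares depend on single libraries. Leaving out control 1 turned the 156 lower calls into 67 and the 501 in either direction into 269. With triptolide A left out, 73 of 6682 loci tested were called lower and 279 in either direction. With triptolide 3 left out these were 88 and 269 of 6620, and with triptolide B left out 152 and 588 of 6601. With 6 loci tested, 1 call is too few to set the window against that background. The other 5 had log2 fold changes of -0.17 to 0.84 and adjusted p of 0.39 to 0.90 (edgeR). The median over the 6 was 0.18, against 0.0020 over all loci tested.

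XLOC_015732, at the far end of the window (66969257 to 66980809, plus strand), was the next most abundant and had 103 and 105 counts in control and 98, 91 and 86 in triptolide. In CPM, which allows for depth, triptolide A lay between the controls. The levels of 102 ± 6.2 CPM in control and 91.0 ± 10.9 CPM in triptolide did not pass the test (adjusted p = 0.74, edgeR). One of its 4 isoforms, TCONS_00027021, had 17.8 and 19.2 counts in control and 0, 0 and 0.01 in triptolide. It passed the filter on low counts only through the controls, so no test of it is given. XLOC_020584 (minus strand, 66755146 to 66773374) had 48 and 21 counts in control and 53, 42 and 43 in triptolide, so the groups overlapped. XLOC_015719 (plus strand, 66837384 to 66839758) had 27 and 24 against 29, 29 and 30 counts, and XLOC_020619 (minus strand, 66832973 to 66844404) had 12 and 21.2 against 8.44, 24 and 22.7.

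The annotated lncRNA genes of the window were barely detected. 1110002J07Rik (XLOC_020635, minus strand, 66912489 to 66920258) had 11 and 8 counts in control and 14, 13 and 24 in triptolide. Its log2 fold change of 0.84 ± 0.55 (SE) did not pass (adjusted p = 0.39, edgeR). Gm26576 (XLOC_015725) had 0 and 0 against 4, 4 and 1 counts, and Gm28139 (XLOC_015686) had 0 in all 5 libraries. The 9 neighbours that were not tested had at most 10 counts in any library. The first locus inside the window, XLOC_020550 (66589324 to 66590982), had 3 counts in control 2 and 0 elsewhere, and the next outside it at lower coordinates, XLOC_015684 (66254435 to 66258709), had 5, 11, 2, 10 and 3 counts over the libraries. At the higher end XLOC_015732 was the last inside, and the next outside, XLOC_015751 (67029103 to 67055701), antisense to Reep3, had 10, 15, 9, 4 and 17. Of 11957 circRNAs in the deposited table, 0 lay inside the window.

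**Figure D4:**
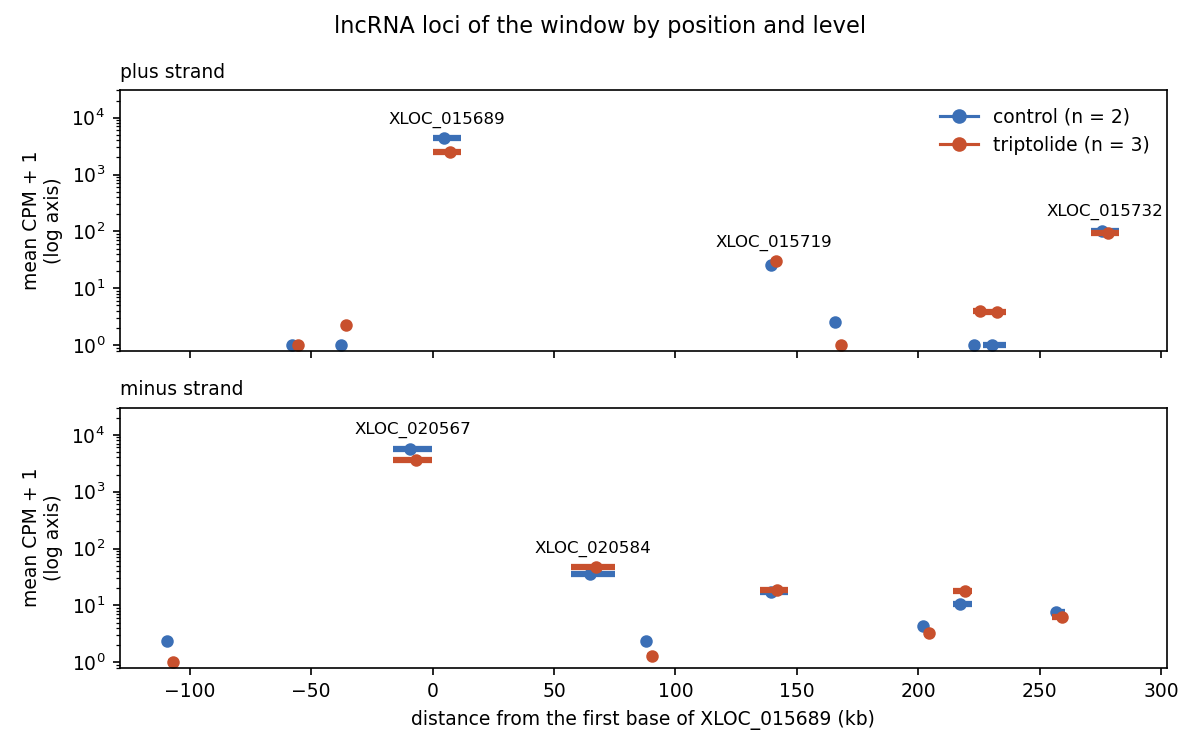
Loci of the window by distance from the first base of XLOC_015689 (kb, horizontal axis) and mean CPM + 1 (log axis), plus strand above and minus strand below. Bars span each locus and dots mark its middle, shifted by 1.2 kb to the left for control and to the right for triptolide. XLOC_015689 and XLOC_020567 meet at 0 and stand above all other loci.

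To place the change of isoforms, the same share measure was taken over all 1179 loci with at least 2 isoforms and at least 100 counts in every library. For each locus the isoform whose mean share differed most between groups was used. At XLOC_015689 this was TCONS_00026974, with 24.3 percentage points, against a median of 7.43 over the loci. In all, 45 loci (3.82%) had a difference at least as large. Between the controls the largest difference of any XLOC_015689 isoform was 0.541 percentage points, against a median of 9.84. At 136 loci (11.5%) the 2 controls alone differed by 24.3 points or more, so shifts of this size occurred between libraries of 1 group as well. The measures are not alike, since single libraries vary more than the group means. Among the 47 loci with at least 2000 counts on average, where counting error is smaller, the medians were 3.60 points between groups and 3.29 between controls. In that set 3 loci, XLOC_015689 included, differed as much between groups, and 1 differed as much between controls.

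A second view counts isoforms that are plentiful in 1 group and at 0 throughout the other. Of 1392 transcripts with at least 100 counts in both controls, 1 was at 0 in all triptolide libraries (0.0718%), and it is TCONS_00026974. Of 1264 transcripts with at least 100 counts in all triptolide libraries, 0 were at 0 in both controls. With a minimum of 20 counts, 9 of 5814 were at 0 in all triptolide libraries, the next highest averaging 72.7 counts in control, and 12 of 5275 were at 0 in both controls. Under a looser criterion, 100 or more counts in 1 library and 0 in another of its own group, there were 37 transcripts in the controls and 48 in the triptolide libraries, among them TCONS_00026975. The criteria differ, so these numbers are not compared. XLOC_015689 was chosen for this pattern, and these counts describe it without testing it.

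**Figure D5:**
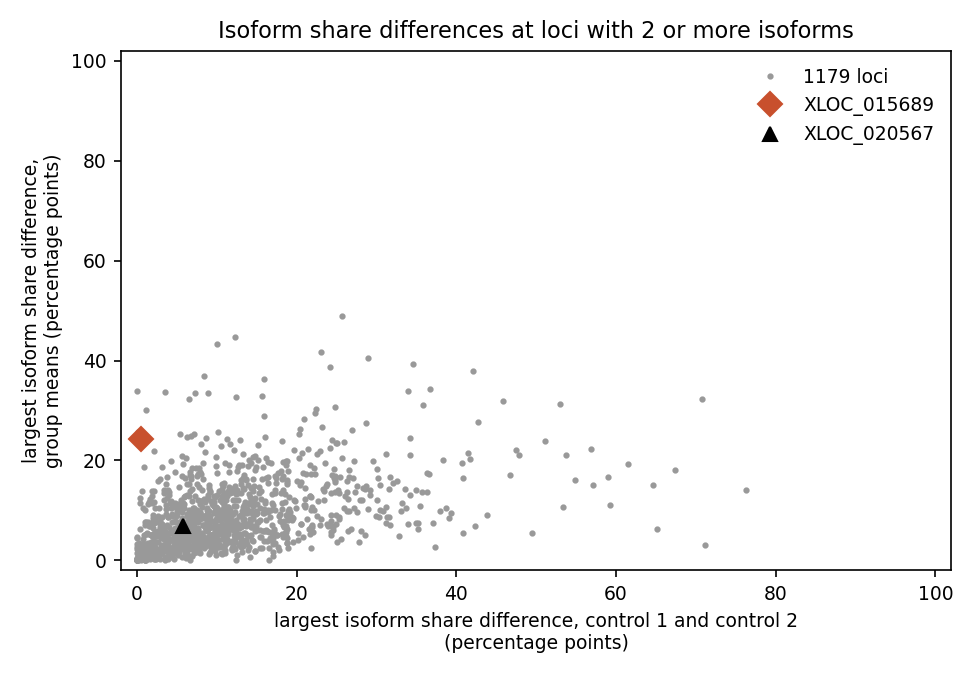
Each point is 1 of 1179 loci: the largest isoform share difference between the 2 controls (horizontal axis, percentage points) against that between the group means (vertical axis). XLOC_015689 lies at 0.541 and 24.3, and XLOC_020567 at 5.76 and 6.93.

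Transcripts whose levels followed those of TCONS_00026971 most closely were sought among all with at least 50 CPM on average, by Pearson's r of log2(CPM + 1) over the 5 libraries. The 5 transcripts with the highest r, of 3275 compared, reached 0.995 to 0.998, and the 5 loci with the highest r, of 2885, reached 0.994 to 0.999. With 5 libraries in 2 groups such values carry no p, and r does not depend on the size of the difference. Examples are XLOC_016827 (chromosome 10, 86616693 to 86629935), from 446 ± 25.8 to 259 ± 17.7 CPM, and XLOC_021706 (chromosome 10, 85732462 to 85748444), from 487 ± 19.7 to 292 ± 22.8 CPM. TCONS_00078143 at 4930519D14Rik (chromosome 13) went from 126 ± 10.6 to 75.3 ± 5.7 CPM, and XLOC_084528 at Rasal3 (chromosome 17), which names a Ras GTPase-activating protein, from 182 ± 6.7 to 137 ± 4.6 CPM.

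The tissue label and the makeup of the samples could be checked only in part, since gene names were not given with the mRNA transcripts. Of 6 marker genes of meiotic germ cells, 5 gave circRNAs, with summed values of 2457 and 3122 SRPBM (junction reads scaled to the library) in control and 2293, 2590 and 2129 in triptolide. Of 12 spermatid markers 3 did, with 1018 and 1022 in control and 542, 879 and 528 in triptolide. The 3 triptolide columns of the circRNA values share a header, so they cannot be matched to triptolide A, B and 3. lncRNA loci at 3 of the 6 meiotic genes summed to 491 and 587 CPM in the controls and to 227, 266 and 233 CPM with triptolide, mostly through the locus antisense to Topaz1 (394 ± 74.6 and 118 ± 3.3 CPM). Within that sum 1 of the loci at Tex14 went the other way, at 5.49 ± 2.5 CPM in the controls and 16.2 ± 8.1 CPM with triptolide. Those at 4 of the 12 spermatid genes went the other way, at 145 and 150 CPM in the controls and 353, 255 and 405 CPM with triptolide. Star, a cholesterol carrier of Leydig cells, was the only one of 5 Leydig cell markers with an lncRNA locus, at 55.4 CPM on average in control and 37.8 CPM in triptolide. Of 4 spermatogonial markers 2 gave circRNAs, at 140 and 124 SRPBM in control against 124, 115 and 139, and Dmrt1 had an lncRNA locus at 4.41 ± 0.37 and 3.04 ± 1.9 CPM. Of 5 immune markers 1, Adgre1, gave circRNAs, at 17 and 0 against 0, 43 and 0 SRPBM. No Sertoli cell or epididymis marker gave a circRNA or an lncRNA locus. The effective length of TCONS_00026971 was also 28.2 and 17.9 bases longer in triptolide 3 than in control 1 and 2, which means shorter sequenced fragments in that triptolide library. The part of germ cell makeup and of fragment length in the values of XLOC_015689 and XLOC_020567 was not tested.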

How the data were processed

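The lncRNA table holds expected counts and FPKM per assembled transcript, per the file headers. The authors' tools were HISAT2 2.0.1, HTSeq 0.6.1, DESeq and bedtools 2.17.0, per the submitters' processing notes, with no role given. Those notes name the human build hg19, but 13128 of 13426 transcripts (97.8%) with 1 Ensembl gene overlapped the RefSeq gene of that symbol in mouse GRCm38.p6, which served for names and gene order only. The quantifier and strand setting are not given in the sources used here. The circRNA table holds a rounded SRPBM score deposited by the authors, used for markers only. The mRNA table was not used, as its transcripts come without gene names or coordinates. Of the lncRNA table, 2 FPKM columns (triptolide) were not used: 2 triptolide count columns share a header, so the columns of both measures could not all be mapped to 3 libraries.

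Counts were rounded and tested, per transcript and summed per locus, with edgeR 4.0.16 in R 4.3.3: filterByExpr, TMM, quasi-likelihood F test, Benjamini-Hochberg adjustment over all features, threshold 0.05. Scripts were tested on simulated data. DESeq2 1.42.0, limma 3.58.1, no TMM, other filters (none; mean count of at least 10), per-length levels (count over library total and effective length, the length taken from the library with the highest FPKM among control 1, control 2 and triptolide 3, limma on log2 of the value + 1, mean of at least 1) and leaving out each library were tried. The effective length of a transcript is what its count, its FPKM and the library total imply; above 20 counts it stayed below the genomic span in all 7200, 7511 and 7412 transcripts of control 1, control 2 and triptolide 3. The named items are all window transcripts, the nearest genes, and the 5 transcripts and 5 loci most like the main isoform. The members and lists were chosen with earlier results of these data known. Sequences of the locus are not printed, as no genome was used here.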

Additional observations from a re-analysis of the deposited data

How the results depend on the processing

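The counts of calls depended on the method. Of lncRNA transcripts, edgeR called 0, DESeq2 327, limma on log2(CPM + 1) 3 and edgeR with no filter 39, while every fit with 1 library left out called 0. Of loci, 501 were called, 269 to 588 with 1 library left out (269 without control 1, 279 without triptolide A, 269 without triptolide 3; of these 67, 73 and 88 lower, against 156), and 0 with limma on per-length levels, an alternative chosen after seeing the data. The call at XLOC_020567 (log2 fold change -0.66) held under 8 of 11 alternatives. With 1 library left out the value lay between -0.80 and -0.51, with 0 or 1 neighbours called, and limma on per-length levels gave -0.67 (adjusted p = 0.36) and 0 neighbours called. No paired analysis was possible because 2 of the 3 triptolide count columns bear the same header and the other bears the number 3, which no control has. Per base of effective length, the share in triptolide minus that in control was -22.7 percentage points for TCONS_00026974 (-24.3 in counts), 21.3 for TCONS_00026970 (19.8 in counts) and -0.53 for TCONS_00026971 (2.83 in counts). With 1 library left out the count shares differed by -24.5 to -24.1, 19.1 to 20.3 and 1.61 to 4.33 points. The log2 fold change of the XLOC_015689 total (-0.82) lay between -0.93 and -0.69 with 1 library left out. Depth limits the other neighbours, which had at most 105 counts.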
